A study of Mus musculus with 35 samples.

Results

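The 300 longest stretches of acetylated chromatin in mouse bone marrow neutrophils were described, as found by ChIP-seq for acetylated lysine 27 of histone H3 (H3K27ac). Peaks listed for the 2 wild-type (WT) neutrophil H3K27ac libraries were pooled, peaks separated by 12500 bp or less were joined into domains, and the domains were ranked by the mean number of base pairs that the 2 peak lists cover inside them. This gave 11858 domains, and the 300 with the largest covered length form the set. The domains were chosen by neutrophil H3K27ac itself, so the neutrophil H3K27ac values below, and their distance from the H3K27ac values of progenitors, are a description with no test.

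The series profiled WT neutrophils and lineage-negative (Lin-) hematopoietic stem and progenitor cells (HSPCs) of 4 genotypes: Npm1c, Flt3-ITD, DM and WT. Npm1c is the cytoplasmic form of nucleophosmin, Flt3-ITD is an internal tandem duplication of the receptor tyrosine kinase Flt3, and DM is read here as the cells carrying both mutations, although the labels do not spell it out. All mice were C57BL/6; the bone marrow was flushed from femurs and tibias, HSPCs were obtained with a lineage depletion kit and neutrophils with a neutrophil isolation kit, so both are enriched populations and not single sorted cell types. Each of the 5 groups had 2 libraries, called biological replicates in the series, for each of 3 marks: H3K27ac, H3K4me1 and H3K4me3. The labels give neither age nor the promoter or Cre that brought the alleles into the cells, and they do not say whether a library pools animals.

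H3K27ac marks active promoters and enhancers. H3K4me1 marks enhancers, both active and not yet acetylated, and H3K4me3 marks promoters. Long runs of closely spaced H3K27ac peaks, often called stitched or super-enhancers, are known in many cell types to lie at genes that define the cell. Neutrophils are short-lived phagocytes that arise from HSPCs through granulocyte precursors, a path in which the transcription factors PU.1 and C/EBP are known to act. A domain is named here by the protein-coding RefSeq genes it overlaps, or as near the closest such gene, and neither name shows which gene a domain acts on.

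The cell labels were checked against marker genes. Of 20 neutrophil marker genes, 17 overlapped H3K27ac peaks in both neutrophil libraries, against 4 in Npm1c HSPCs, 5 in Flt3-ITD HSPCs, 4 in DM HSPCs and 4 in WT HSPCs. Of 23 stem and progenitor genes, 6 did so in neutrophils, against 21 in Npm1c, 20 in Flt3-ITD, 18 in DM and 19 in WT HSPCs. The H3K27ac lists held 21709 to 30150 peaks that covered 13.5 to 23.9 Mb, and their lengths differed between groups and within DM. They covered 16.0 and 16.6 Mb in neutrophils, 23.4 and 23.9 Mb in Npm1c, 16.6 and 18.3 Mb in Flt3-ITD, 20.3 and 13.5 Mb in DM and 15.2 and 15.3 Mb in WT HSPCs. The lists give positions only, so the sequencing depth behind each value is unknown and covered length is the measure used throughout.

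The 6 promoters below are printed because they lie in high-ranked domains and hold a motif of a factor known in myeloid cells. Their genes come from the lists of granule, cytokine and receptor genes described further below. They are the RefSeq promoter windows of GRCm38.p6, the assembly called mm10, running from 250 bases before to 50 after the gene's start, 5′ to 3′ on the gene's strand. Capitals mark GAGGAAG (PU.1) or TTGCNNAA (C/EBP), each in this form or as its reverse complement. The windows are chr17:35201958-35202257 on the minus strand for Tnf, chr3:90668821-90669120 on the plus strand for S100a8 and chr3:90695672-90695971 on the minus strand for S100a9. They are chr9:110419558-110419857 on the plus strand for Ngp, chr4:145246821-145247120 on the minus strand for Tnfrsf1b and chr7:139992513-139992812 on the minus strand for Adam8.
Tnf: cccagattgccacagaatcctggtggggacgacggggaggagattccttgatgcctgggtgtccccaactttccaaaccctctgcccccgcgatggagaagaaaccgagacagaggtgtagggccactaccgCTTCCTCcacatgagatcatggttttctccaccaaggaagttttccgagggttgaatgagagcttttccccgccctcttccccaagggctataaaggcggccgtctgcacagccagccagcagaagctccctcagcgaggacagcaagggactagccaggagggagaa
S100a8: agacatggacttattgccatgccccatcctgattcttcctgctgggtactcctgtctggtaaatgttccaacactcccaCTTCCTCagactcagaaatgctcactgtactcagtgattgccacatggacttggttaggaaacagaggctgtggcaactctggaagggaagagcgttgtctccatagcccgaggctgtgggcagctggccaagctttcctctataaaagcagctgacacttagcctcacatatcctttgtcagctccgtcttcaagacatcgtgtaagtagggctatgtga
S100a9: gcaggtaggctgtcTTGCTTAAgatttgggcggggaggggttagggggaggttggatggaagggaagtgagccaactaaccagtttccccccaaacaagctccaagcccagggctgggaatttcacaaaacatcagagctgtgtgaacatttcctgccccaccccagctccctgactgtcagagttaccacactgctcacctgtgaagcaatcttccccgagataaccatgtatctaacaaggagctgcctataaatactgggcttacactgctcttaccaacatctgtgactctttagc
Ngp: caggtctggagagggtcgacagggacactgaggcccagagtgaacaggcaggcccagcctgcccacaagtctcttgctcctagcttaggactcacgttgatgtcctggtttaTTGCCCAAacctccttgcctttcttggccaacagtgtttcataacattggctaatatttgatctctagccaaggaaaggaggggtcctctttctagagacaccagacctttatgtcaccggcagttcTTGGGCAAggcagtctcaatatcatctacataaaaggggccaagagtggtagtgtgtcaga
Tnfrsf1b: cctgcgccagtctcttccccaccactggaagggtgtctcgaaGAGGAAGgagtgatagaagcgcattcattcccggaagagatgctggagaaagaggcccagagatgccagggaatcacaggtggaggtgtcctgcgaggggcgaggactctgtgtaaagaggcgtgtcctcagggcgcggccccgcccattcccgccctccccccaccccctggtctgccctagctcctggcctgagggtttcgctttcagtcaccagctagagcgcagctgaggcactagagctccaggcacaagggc
Adam8: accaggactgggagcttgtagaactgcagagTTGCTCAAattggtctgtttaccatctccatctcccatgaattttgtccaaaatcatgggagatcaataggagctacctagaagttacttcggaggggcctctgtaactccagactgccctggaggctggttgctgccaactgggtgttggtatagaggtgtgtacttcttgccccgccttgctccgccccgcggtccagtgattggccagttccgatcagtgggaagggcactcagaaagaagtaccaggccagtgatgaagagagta

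Peaks of neutrophil H3K27ac reached into all 6 windows. In the Tnf window they covered 88 and 172 bp in neutrophils, 0 and 76 bp in Npm1c, 0 and 0 bp in Flt3-ITD, 300 and 21 bp in DM and 0 and 0 bp in WT HSPCs. The windows of S100a8, S100a9, Ngp and Adam8 held 0 bp of H3K27ac in all 8 HSPC libraries, whereas that of Tnfrsf1b was reached in all 10 libraries. Over the 652 RefSeq promoters inside the 300 domains, the PU.1 letters GAGGAAG were found in 16.1%, against 13.6% of all 32851 promoters, searched on both strands. TTGCNNAA was found in 11.7% and 10.8%, and the AP-1 letters TGANTCA in 6.29% and 7.81%. Of the 8036 promoters acetylated in neutrophils outside the 300 domains, 14.2% held the PU.1, 7.45% the C/EBP and 3.92% the AP-1 letters, so the AP-1 share in the domains was below that of all promoters and above that of acetylated ones. Of the 88 promoters in the domains that were acetylated in both neutrophil libraries and not in both WT HSPC libraries, 22.7%, 20.5% and 11.4% held the PU.1, C/EBP and AP-1 letters. Several promoters can belong to 1 gene, and a match of letters is not a bound site.

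Hairpins of 25 of the 1005 microRNAs in the RefSeq table lay in 16 of the domains. Among them, 2 domains carry microRNAs long known in blood cells, and their mature sequences are printed with the seed, bases 2 to 8, in capitals. Mir142, which is expressed across blood lineages, lies in the domain of rank 74 at chr11:87733971-87757645, which also overlaps Rnf43 and Supt4a. The cluster of Mir23a, Mir27a and Mir24-2, on chromosome 8, lies in the domain of rank 49 near Zswim4.
mmu-miR-142a-5p: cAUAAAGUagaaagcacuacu
mmu-miR-142a-3p: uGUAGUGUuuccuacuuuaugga
mmu-miR-23a-3p: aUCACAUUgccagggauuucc
mmu-miR-27a-3p: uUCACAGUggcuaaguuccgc
mmu-miR-24-3p: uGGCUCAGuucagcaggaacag

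These 5 mature microRNAs have 5 different seeds. H3K27ac in the Mir142 domain covered 7.59 and 8.39 kb in neutrophils, 12.2 and 11.9 kb in Npm1c, 10.1 and 11 kb in Flt3-ITD, 11.7 and 10.4 kb in DM and 10.4 and 10.2 kb in WT HSPCs. All 8 HSPC values lay above both neutrophil values.

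The 300 domains held 13.3% of the base pairs covered in the neutrophil lists. Their covered length ran from 5.28 to 17.8 kb with a median of 6.64 kb, against a median of 0.956 kb in the other 11558 domains. Their span, gaps included, had a median of 29.0 kb and ran from 7.42 to 88.9 kb. Each was built from 3 to 25 peaks in the first neutrophil library and 3 to 34 in the second, with medians of 9 and 10. The 2 libraries differed by less than 1.5 times in all 300, with the ratio of the second to the first between -0.29 and 0.50 on the log2 scale. The set overlapped 524 protein-coding genes: 27 domains overlapped none, 153 overlapped 1 and 120 overlapped more, up to 15. Of all 11858 domains, 17.5% overlapped no gene. At the lower edge, rank 300, near Ptma, covered 5.30 and 5.25 kb and rank 299, at Nfil3, covered 5.64 and 4.97 kb. Just below the edge, a domain near Krt80 covered 5.27 and 5.26 kb, so the edge parts domains of nearly equal length.

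The longest domain lay over the cytokine locus that holds Tnf, Ltb, Lta and Lst1 (chr17:35185646-35263366). Its H3K27ac covered 17.2 and 18.4 kb in neutrophils, 10.9 and 14.5 kb in Npm1c, 8.92 and 9.76 kb in Flt3-ITD, 14.9 and 9.08 kb in DM and 7.62 and 8.07 kb in WT HSPCs. Both neutrophil values lay above all 8 HSPC values, and every mutant library lay above both WT HSPC libraries. The next, over Ptpre, a receptor-type tyrosine phosphatase gene (chr7:135578441-135667349), covered 13.8 and 19.3 kb in neutrophils, 13.9 and 18.2 kb in Npm1c, 7.79 and 8.46 kb in Flt3-ITD, 7.15 and 3.28 kb in DM and 6.55 and 6.61 kb in WT HSPCs. Here Npm1c HSPCs overlapped neutrophils and Flt3-ITD, DM and WT HSPCs stayed below both. Rank 3 was the first of the domains over Cmip, which encodes an adaptor protein, the others being ranks 181 and 227. Rank 4 lay over Lrrfip1, which encodes a nucleic acid binding protein. Lrrfip1 covered 14.9 and 17.1 kb in neutrophils, 7.06 and 10.4 kb in Npm1c, 9.98 and 8.49 kb in Flt3-ITD, 15.3 and 10.6 kb in DM and 5.46 and 5.53 kb in WT HSPCs.

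Rank 5 overlapped no gene and lay 49.6 kb from Cebpb, the gene of a C/EBP factor (chr2:167740010-167778788). It covered 14.4 and 14.9 kb in neutrophils, 3.45 and 7.64 kb in Npm1c, 6.71 and 5.32 kb in Flt3-ITD, 8.62 and 5.47 kb in DM and 3.65 and 4.91 kb in WT HSPCs. A separate domain over Cebpb itself ranked 88, with 7.33 and 8.14 kb in neutrophils and 2.66 and 2.55 kb in WT HSPCs.

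The other leading domains differed in how they stood to HSPCs, described and not tested. Those at Gsr (glutathione reductase), Sbno2, Irak2 (a kinase of Toll-like and IL-1 receptor signalling) and Cmip were longer in both neutrophil libraries than in all 8 HSPC libraries. Those at Tbc1d2b, which encodes a Rab GTPase-activating protein, and at Ago2, the slicing Argonaute, were longer in both Npm1c libraries than in both neutrophil libraries. Tbc1d2b covered 13.1 and 14.5 kb in neutrophils, 16.1 and 18.3 kb in Npm1c, 10.4 and 10.3 kb in Flt3-ITD, 7.33 and 3.26 kb in DM and 14 and 13.3 kb in WT HSPCs. Ago2 covered 11.2 and 12.7 kb in neutrophils, 14.1 and 15.6 kb in Npm1c, 8.31 and 8.97 kb in Flt3-ITD, 11 and 7.06 kb in DM and 10.8 and 11.1 kb in WT HSPCs. The domain of Zfp36 (rank 10) covered 12.4 and 12.2 kb in neutrophils, 10.9 and 12 kb in Npm1c, 11.5 and 11 kb in Flt3-ITD, 15.2 and 13.4 kb in DM and 7.78 and 7.48 kb in WT HSPCs, with DM above and the other HSPCs below both neutrophil values. The domain over S100a8 and S100a9, which encode the 2 subunits of calprotectin, was acetylated in neutrophils alone among these groups.

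**Figure D1:**
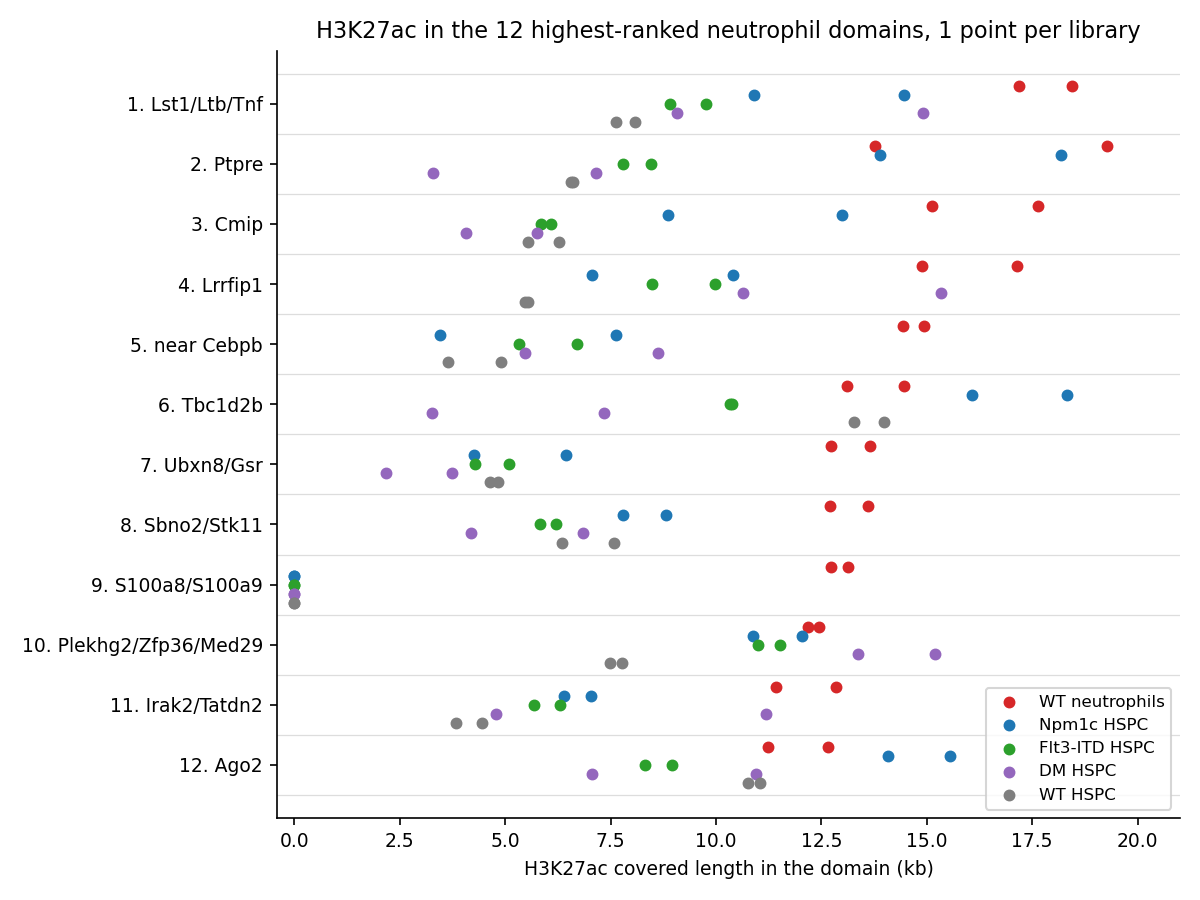
H3K27ac covered length in kb (x axis) in the 12 highest-ranked domains (rows), 1 point per library and 1 colour per group. Rank 9, S100a8/S100a9, lies at 0 in all 8 HSPC libraries, and at rank 6, Tbc1d2b, the WT HSPC points reach the neutrophil ones.

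The S100a8/S100a9 domain (chr3:90658610-90708283, 49.7 kb) covered 12.7 and 13.1 kb in neutrophils and 0 kb in each of the Npm1c, Flt3-ITD, DM and WT HSPC libraries. The methylation marks were not absent from HSPCs there. H3K4me3 averaged 12.1 kb in neutrophils, against 2.0 kb in Npm1c, 1.5 kb in Flt3-ITD, 1.0 kb in DM and 5.59 kb in WT HSPCs, and a peak at S100a8 was listed in all 10 libraries. H3K4me1 averaged 16.5 kb in neutrophils, 4.0 kb in Npm1c, 6.0 kb in Flt3-ITD, 5.0 kb in DM and 7.18 kb in WT HSPCs. The first Npm1c library held no H3K4me1 peak in the domain and the second held 8.

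**Figure D2:**
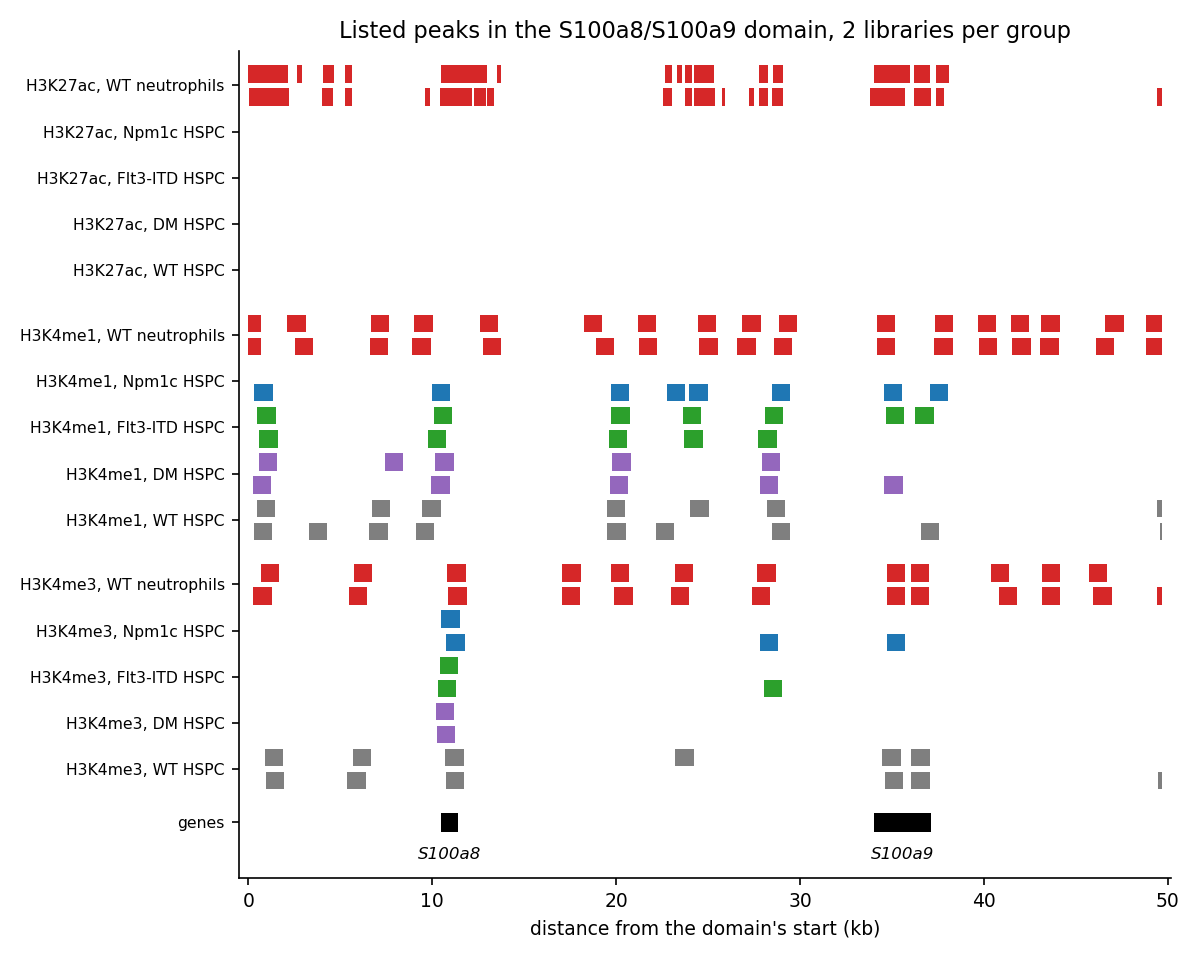
Peaks listed in the S100a8/S100a9 domain by distance from its start in kb (x axis), 2 rows per group and mark, with the 2 genes as black bars. The H3K27ac rows of all 4 HSPC groups are empty, whereas H3K4me1 and H3K4me3 peaks stand in most HSPC rows.

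In WT HSPCs the 300 domains were mostly acetylated, over a shorter length than in neutrophils. In bulk samples such as these, fewer cells that carry the mark and less of it per cell cannot be told apart. H3K27ac was found in both libraries in 278 domains in Npm1c, 284 in Flt3-ITD, 284 in DM and 285 in WT HSPCs. It was found in all 8 HSPC libraries in 274 domains, 91.3% of the set against 66.7% of all 11858. Found means at least 1 bp, and the median span was 29.0 kb in the set against 1.32 kb over all domains. Of the 300 domains ranked next below the set, with a median span of 17.3 kb, 88% had H3K27ac in all 8. The part of span in these shares was not tested. Both libraries lay below both neutrophil libraries in 222 domains in Npm1c, 254 in Flt3-ITD, 227 in DM and 269 in WT HSPCs. They lay above in 53, 30, 18 and 21 domains. The set was chosen for its length in neutrophils, which favours lower HSPC values, and these counts were not made over all 11858 domains.

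Summed over the set, H3K27ac covered 2107 and 2242 kb in neutrophils, 1325 and 1598 kb in Npm1c, 1203 and 1189 kb in Flt3-ITD, 1513 and 982 kb in DM and 1010 and 1029 kb in WT HSPCs. Every library of Npm1c and Flt3-ITD and 1 of the 2 of DM lay above both WT HSPC libraries. As a share of each list the order differed: the set took 13.1% and 13.5% of the covered length in neutrophils, 5.65% and 6.68% in Npm1c, 7.26% and 6.48% in Flt3-ITD, 7.44% and 7.29% in DM and 6.65% and 6.74% in WT HSPCs. With each list cut to its 21704 widest peaks, the length of the shortest list, the sums were 2012 and 2122 kb in neutrophils, 1222 and 1463 kb in Npm1c, 1175 and 1150 kb in Flt3-ITD, 1444 and 978 kb in DM and 1006 and 1029 kb in WT HSPCs.

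**Figure D3:**
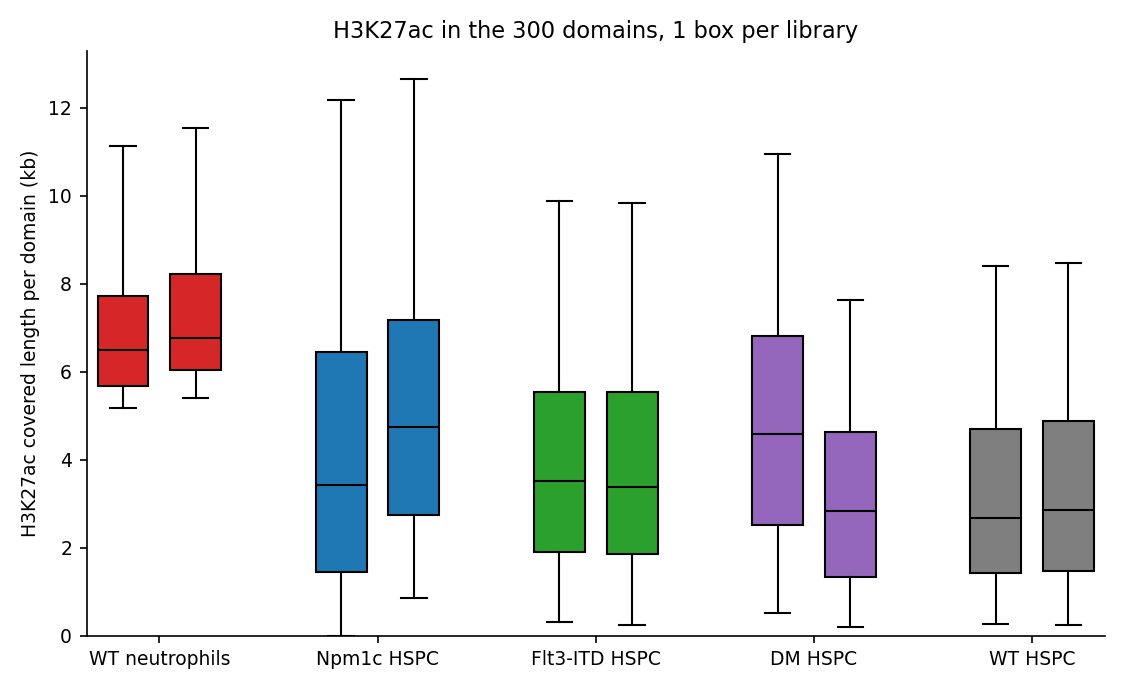
H3K27ac covered length per domain in kb (y axis) over the 300 domains, 1 box per library; boxes give quartiles, the black line the median and whiskers the 5th and 95th percentiles. The medians are 6.49 and 6.75 kb in neutrophils, 3.43 and 4.73 kb in Npm1c, 3.52 and 3.38 kb in Flt3-ITD, 4.59 and 2.83 kb in DM and 2.67 and 2.86 kb in WT HSPCs.

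The median domain held, relative to its neutrophil length, 55.7% in Npm1c, 46.2% in Flt3-ITD, 52.2% in DM and 37.7% in WT HSPCs. Over all 11858 domains the WT HSPC median was 82.7%. The WT HSPC share was under 25% in 87 domains, 29.0% of the set against 30.9% of all 11858. It was at least 100% in 27 domains, 9% of the set against 35.5% of all. Base pairs acetylated in both neutrophil libraries came to 1881 kb in the set. Of these, 58.2% were acetylated in at least 1 Npm1c library, 52.5% in Flt3-ITD, 56.8% in DM and 45.4% in WT HSPCs. A further 26.1% in Npm1c, 30.7% in Flt3-ITD, 26.8% in DM and 35.1% in WT HSPCs lay under H3K4me1 peaks without acetylation. The remaining 15.6%, 16.7%, 16.5% and 19.5% carried neither mark. In the other 11558 domains, WT HSPCs had 66.9% acetylated, 22.6% under H3K4me1 alone and 10.5% with neither. H3K4me1 peaks are 1000 bp wide in these lists whatever the true width, so these shares depend on that setting.

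When HSPC peaks were stitched and ranked in the same way, 89 of the 300 neutrophil domains overlapped a top-300 domain of Npm1c, 95 of Flt3-ITD, 103 of DM and 84 of WT HSPCs. The sets overlap in 30.3%, 32.3%, 34.7% and 28.0% of the HSPC lists. In all, 59 neutrophil domains overlapped all 4 HSPC lists and 164 overlapped none.

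Among the first 100 ranks the lowest WT HSPC shares were those of S100a8/S100a9, Crispld2, Atrnl1, Entpd1 and Sh3bp5. Crispld2 encodes a secreted cysteine-rich protein (rank 77) and covered 7.70 and 8.07 kb in neutrophils, 0 and 0 kb in Npm1c, 0.328 and 0 kb in Flt3-ITD, 0 and 0.275 kb in DM and 0 and 0 kb in WT HSPCs. Entpd1 encodes the ectonucleotidase CD39 (rank 20) and covered 9.94 and 11.4 kb in neutrophils, 0 and 1.85 kb in Npm1c, 0.288 and 0.872 kb in Flt3-ITD, 3.90 and 1.38 kb in DM and 0.726 and 0.302 kb in WT HSPCs. The first DM library was the highest of the 8 HSPC libraries there, and both neutrophil values stood far above it.

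H3K27ac was absent from all 8 HSPC libraries in 14.8% of all domains and in 0.333% of the 300 ranked next below the set. In the set there were 3 such domains, or 1.00%. Besides S100a8/S100a9 they were the second domain over Cmip (rank 181, chr8:117361921-117372436), with 6.24 and 6.14 kb in neutrophils, and a domain 204 kb from Id2 (rank 231, chr12:25299782-25336175), with 5.30 and 6.25 kb. The domain near Id2 carried H3K4me1 over 12 and 13 kb in neutrophils and 13 and 13 kb in WT HSPCs.

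The highest WT HSPC shares among the first 100 ranks belonged to a cluster of replication-dependent histone genes (H4c8, H2ac10, H3c8 and others), Hnrnpf, Mknk2, the Mir142 domain and Mideas. The histone cluster (rank 60) covered 8.49 and 8.39 kb in neutrophils, 28.1 and 22.8 kb in Npm1c, 20.2 and 20.9 kb in Flt3-ITD, 23.3 and 15.5 kb in DM and 20.3 and 19.8 kb in WT HSPCs. All 8 HSPC values lay far above both neutrophil values. Reads in such clusters of near-identical genes can be shared between copies. Hnrnpf encodes an RNA-binding splicing protein (rank 55) and covered 8.59 and 8.41 kb in neutrophils, 17.4 and 15.2 kb in Npm1c, 12.4 and 13.6 kb in Flt3-ITD, 10.7 and 7.60 kb in DM and 12.4 and 11.9 kb in WT HSPCs.

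The genes in the domains were read against lists of neutrophil and other blood cell genes. Of all 21887 protein-coding genes, 2.39% overlapped a domain of the set. Of 17 genes on the list called secondary and later granule genes, 6 did: S100a8 and S100a9 (rank 9), Ngp (neutrophilic granule protein, rank 80), Adam8 (rank 176), Hp (haptoglobin, rank 197) and Padi4 (rank 237), the histone-citrullinating enzyme of neutrophil extracellular traps. The list was drawn loosely, as S100a8, S100a9 and Padi4 are not granule protein genes in the strict sense. None of the 8 primary granule genes did, although 3 of them overlapped H3K27ac in both neutrophil libraries. Of 9 genes of survival and cytokine feedback, 5 did, among them Mcl1 (rank 18), the anti-apoptotic BCL-2 relative that neutrophils need, Socs3 (rank 54) and Pim1 (rank 178). Of 22 AP-1 and immediate early genes, 7 did, among them Zfp36 (rank 10), whose product destabilises Tnf mRNA. Others were Fosl2 (rank 31), Junb (rank 68) and Fos (rank 168). The equally large sets of longest HSPC domains, ranked in the same way, overlapped 7 of these 22 genes in WT and 8 in DM. These HSPC sets overlapped 0 and 0 of the 17 secondary and later granule genes and 2 and 2 of the 9 survival genes. Of all protein-coding genes they overlapped 3.18% in WT and 3.00% in DM.

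Of 24 myeloid transcription factor genes, 6 overlapped a domain of the neutrophil set. They were Spi1, the gene of PU.1 (rank 19), Fli1, Cebpb, Etv6, Klf6 and Nfil3. The Spi1 domain covered 11.1 and 11 kb in neutrophils, 6.23 and 8.87 kb in Npm1c, 6.38 and 6.12 kb in Flt3-ITD, 9.90 and 6.82 kb in DM and 4.95 and 4.82 kb in WT HSPCs. All 6 mutant values lay between those of WT HSPCs and neutrophils. Of 32 receptor genes, 5 did: the chemokine receptor Ccr1 (rank 13), the TNF receptors Tnfrsf1a and Tnfrsf1b, Il4ra and the inhibitory lectin Siglece. Il4ra covered 6.22 and 6.26 kb in neutrophils, 0.418 and 1.44 kb in Npm1c, 0.480 and 0.639 kb in Flt3-ITD, 1.04 and 0.803 kb in DM and 0.543 and 0.446 kb in WT HSPCs. Of 6 NADPH oxidase genes 2 did, among them Ncf4 (rank 188). Of 18 adhesion and cytoskeleton genes, 5 did, with Itgb2, the beta-2 integrin chain, at rank 23, Actb, Lcp1, Selplg and Fmnl1. Of 16 NF-kappaB genes, Nfkbid, Bcl3 and Rela did, and of 16 cytokine and mediator genes, Tnf and Hdc, the histamine-forming enzyme. The HSPC sets overlapped 2 myeloid transcription factor genes in WT and 5 in DM, and likewise 2 and 5 adhesion and cytoskeleton genes. They overlapped 0 and 2 receptor, 0 and 0 NADPH oxidase, 2 and 2 NF-kappaB and 0 and 3 cytokine and mediator genes.

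Of 23 stem and progenitor genes, Cdk6 and Erg overlapped a domain of the neutrophil set. That is 8.70%, above the 2.39% of all protein-coding genes. The HSPC sets overlapped 4 of the 23 in WT and 5 in DM. The Cdk6 domain (rank 210), at a cell cycle kinase gene, covered 5.76 and 6.10 kb in neutrophils, 8.01 and 7.52 kb in Npm1c, 8.74 and 7.14 kb in Flt3-ITD, 10.8 and 7.78 kb in DM and 4.35 and 4.64 kb in WT HSPCs, so that all 6 mutant values lay above both neutrophils and WT HSPCs. Lists of 12 B-cell, 14 T-cell and NK-cell, 13 dendritic, 17 erythroid, 14 megakaryocyte and 10 granulocyte genes of the eosinophil, basophil and mast cell lines had no member in the set. From these lists the WT HSPC set overlapped 3 erythroid genes and 1 megakaryocyte gene, and the DM set 3 dendritic genes. Both HSPC sets had 0 in the rest. Of 15 monocyte and macrophage genes Cd68 overlapped a domain of the neutrophil set. Of 15 housekeeping genes 2 did, among them Actb (rank 46). Npm1 lay in a domain of rank 10679 with 0.248 kb, and Flt3 lay in none of the 11858.

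Whether the mutations changed H3K27ac in the set was tested with limma on log2(covered bp + 500) over all 9692 domains covered in at least 2 of the 8 HSPC libraries. Of the 300 domains, 294 entered the fit, and p-values were adjusted by the Benjamini-Hochberg method over all 9692. The 3 comparisons share the 2 WT HSPC libraries, and a change here means covered length and not signal height. In Npm1c HSPCs 2 of the 294 rose and 0 fell, against 1.48% and 0.0516% of all tested domains (1.53% in either direction). In Flt3-ITD HSPCs 0 rose and 1 fell, against 0.877% and 0.165% (1.04% in either direction). In DM HSPCs 11 rose and 3 fell, against 2.59% and 1.37% (3.96% in either direction). At an unadjusted limma p under 0.05 the counts were 69, 38 and 74 of the 294, against 1692, 1163 and 1877 of all 9692. The median log2 change over the 294 was 0.39 in Npm1c, 0.18 in Flt3-ITD and 0.22 in DM, against 0.09, 0.03 and 0.00 over all tested domains.

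Without a test, both Npm1c libraries lay above both WT HSPC libraries in 197 of the 294 domains and below both in 3, that is 67.0% and 1.02%, against 51.8% and 1.15% of all tested domains. Both Flt3-ITD libraries lay above in 154 and below in 37, against 38.2% and 7.69% of all. Both DM libraries lay above in 121 and below in 42, against 26.5% and 14.2%. The Npm1c lists were also the longest of all, as given above. With lists of equal length the limma counts were 2 rises and 0 falls in Npm1c, 0 and 1 in Flt3-ITD and 10 and 4 in DM, and the counts of non-overlapping libraries were not recomputed.

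**Figure D4:**
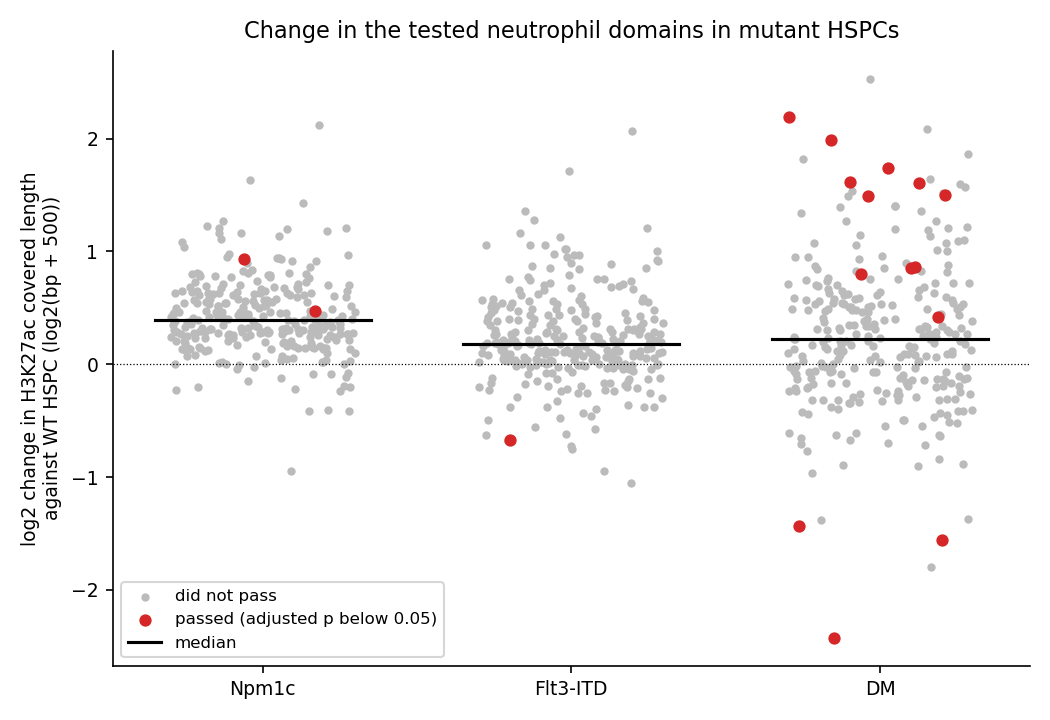
Log2 change in H3K27ac covered length against WT HSPCs (y axis) of the 294 tested domains in Npm1c, Flt3-ITD and DM HSPCs (x axis), 1 point per domain, with red points for adjusted p below 0.05 and a bar at the median. The medians are 0.39, 0.18 and 0.22, and the points spread most widely in DM.

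The DM rises were led by Ccdc88c, a Dishevelled-binding protein gene, by a domain near Mdm1 and by Itpkb, which encodes an inositol trisphosphate kinase. Itpkb (rank 153, chr1:180386507-180405616) covered 5.37 and 4.27 kb in DM and 0.948 and 1.23 kb in WT HSPCs. Its log2 change was 1.74 (SE 0.23, adjusted p = 0.0318). Ccdc88c (rank 232) covered 4.53 and 2.48 kb in DM and 0.334 and 0.361 kb in WT HSPCs, a log2 change of 2.19 (SE 0.34, adjusted p = 0.048). In both cases the DM libraries stood above both WT HSPC libraries and below both neutrophil libraries. The domain near Mdm1 (rank 70) covered 4.63 and 3.06 kb in DM and 0.591 and 0.562 kb in WT HSPCs, with a log2 change of 1.99 (SE 0.31, adjusted p = 0.048). It covered 3.626 and 4.798 kb in Npm1c and 5.219 and 3.061 kb in Flt3-ITD, also above both WT HSPC libraries but not called. The higher length near Mdm1 was thus not particular to DM. Its DM call was kept in 2 alternatives and lost in 7. At Itpkb and Ccdc88c, too, both libraries of Npm1c and of Flt3-ITD lay above both WT HSPC libraries.

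Of the 7 AP-1 and immediate early domains, 3 rose in DM and 0 fell. Over the 294 domains 11 rose and 3 fell, and of all tested domains 2.59% rose and 1.37% fell. The median log2 change of the 7 was 0.25, against 0.22 over the 294. Those that rose were Zfp36, Fos and Ier5. Fos (rank 168) covered 8.78 and 8.33 kb in DM and 4.23 and 4.8 kb in WT HSPCs (log2 change 0.85, SE 0.13, adjusted p = 0.0436). Zfp36 covered 15.2 and 13.4 kb in DM and 7.78 and 7.48 kb in WT HSPCs (log2 change 0.86, SE 0.08, adjusted p = 0.015). Both DM values of Fos and of Zfp36 also lay above the neutrophil values, which were 5.98 and 6.76 kb at Fos and 12.4 and 12.2 kb at Zfp36. Ier5 averaged 8.18 kb in DM and 2.32 kb in WT HSPCs. The other rises were the Mir23a cluster domain near Zswim4 (12.2 kb in DM against 8.96 kb in WT HSPCs), the domain of Nf1, Evi2 and Evi2b (9.11 kb against 2.87 kb), that of Ifitm5 and Ifitm2 (6.03 kb against 1.79 kb) and a domain near Plekho2 (8.43 kb against 2.43 kb). The last call, near Cxcl17, set 0.376 kb in DM against 0 kb in WT HSPCs. None of the 6 myeloid transcription factor domains, 5 receptor domains, 5 adhesion domains, 5 survival domains, 2 NADPH oxidase domains or 2 stem and progenitor domains passed the test in DM. Their median log2 changes were 0.72, 0.54, 0.96, 0.44, 0.83 and 0.89, against 0.22 over the 294. Nor did any domain of the remaining lists pass: the medians were 0.32 over 4 tested domains of secondary and later granule genes, 0.09 over 2 of neutrophil markers, 0.40 over 3 of NF-kappaB genes, 0.97 over 2 of cytokine and mediator genes, 0.54 at the 1 monocyte domain and 0.03 over 2 of housekeeping genes.

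The DM falls included Mroh2a/Hjurp and Tmprss3/Ubash3a. Mroh2a/Hjurp (rank 43) covered 1.69 and 1.28 kb in DM and 5.27 and 5.36 kb in WT HSPCs, a log2 change of -1.56 (SE 0.18, adjusted p = 0.0246). It covered 4.01 and 3.78 kb in Npm1c and 1.89 and 2.79 kb in Flt3-ITD, also below both WT HSPC libraries but not called. In WT HSPCs this domain held 58.2% of its neutrophil length. Beside these values, 4 of 17 erythroid genes overlapped H3K27ac in both DM libraries, against 15 in WT HSPCs, and the part of that difference in the falls was not tested. Neutrophil markers overlapped H3K27ac in the same number of genes, 4 of 20, in DM and WT HSPCs, and S100a8 and S100a9 were at 0 in both.

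The number of DM calls changed with single libraries. It was 1 without the first WT HSPC library, 2 without the second, 52 without the first DM library (13 rises and 39 falls) and 36 without the second (33 rises and 3 falls). Centring each library on its median gave 37 rises and 16 falls. Tmprss3/Ubash3a stayed a fall in DM in all 9 alternatives in which it was tested.

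Tmprss3/Ubash3a (rank 213, chr17:31181201-31227451), where Ubash3a encodes a lymphoid regulator of tyrosine kinase signalling, was called in all 3 comparisons. It covered 5.58 and 6.26 kb in neutrophils, 4.05 and 4.25 kb in Npm1c, 1.67 and 1.54 kb in Flt3-ITD, 0.719 and 0.759 kb in DM and 2.86 and 2.83 kb in WT HSPCs. Within each group the 2 libraries were close, and the 5 groups did not overlap. The log2 changes were 0.47 in Npm1c (SE 0.04, adjusted p = 0.0199), -0.67 in Flt3-ITD (SE 0.04, adjusted p = 0.00794) and -1.43 in DM (SE 0.04, adjusted p = 0.000446). The other Npm1c rise was Cd81/Tssc4 (rank 154), at the gene of the tetraspanin CD81, with 5.69 and 5.24 kb in Npm1c and 2.78 and 2.49 kb in WT HSPCs (log2 change 0.93, SE 0.08, adjusted p = 0.0192). No Npm1c call held when any 1 of its 4 libraries was left out, where the count was 0, and the Flt3-ITD call was lost without the first WT HSPC library. After centring there were 5 rises and 0 falls in Npm1c and 4 rises and 2 falls in Flt3-ITD. Of all tested domains, 42 then rose and 2 fell in Npm1c, and 38 rose and 9 fell in Flt3-ITD.

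The combined effect was tested as an interaction, the DM change minus the sum of the Npm1c and Flt3-ITD changes. Of the 294 domains 0 had a positive and 3 a negative interaction, against 0.32% and 1.89% of all tested domains (2.21% in either direction). An unadjusted limma p under 0.05 was found at 53 of the 294 and at 1643 of all 9692 tested domains. The median interaction was -0.36 over the 294 and -0.12 over all. The 3 were Cbx5/Hnrnpa1/Nfe2, Cd81/Tssc4 and Tmprss3/Ubash3a. Cbx5/Hnrnpa1/Nfe2 (rank 217), which holds the gene of the megakaryocyte and erythroid factor NF-E2, covered 13.1 and 12 kb in Npm1c, 6.74 and 7.83 kb in Flt3-ITD, 5.07 and 3.90 kb in DM and 7.09 and 7.01 kb in WT HSPCs (interaction -1.44, SE 0.20, adjusted p = 0.0482). Npm1c was far above WT HSPCs and DM below them. Leaving out the first DM library gave 1 positive and 81 negative interactions, leaving out the second gave 1 and 10, and leaving out any of the other 6 gave 1 or 4 negative ones.

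H3K4me3 and H3K4me1 were not used to choose the set, so neutrophils and WT HSPCs were compared for both, with the reserve that the domains were chosen for neutrophil H3K27ac. H3K4me3 was longer in neutrophils at many of them. In the limma fit over 11268 domains and 10 libraries, 73 of the 300 rose and 4 fell, against 17.8% and 3.04% of all tested domains. The called share was 25.7% of the set and 20.8% of all. The median log2 change was 0.38, against 0.00 over all, and both neutrophil libraries lay above both WT HSPC libraries in 197 domains, 65.7% against 38.3% of all. The lists hold H3K4me3 and H3K4me1 peaks of a fixed 1000 bp, so many domains have the same length in both libraries of a group and a spread near 0. With the spread kept at or above that of libraries differing by 1 peak, 30 rose and 0 fell. After centring, 101 of the 300 rose and 23 fell, while of all tested domains 2149 rose and 5356 fell.

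Tom1, which encodes an endosomal trafficking protein (rank 252), had 6.0 kb of H3K4me3 in neutrophils and 1.0 kb in WT HSPCs, with a log2 change of 2.12 that stayed called in all 9 alternatives in which it was tested. Atrnl1 (rank 100, chr19:58086361-58144361) had 6.65 and 6.66 kb in neutrophils and 0 and 0 kb in WT HSPCs. The second Cmip domain had 3.5 kb in neutrophils and 0 kb in WT HSPCs. At both, the size of the fitted change depends on the 500 bp that was added, and both calls were lost with the wider spread. Entpd1 had 9.92 kb in neutrophils and 3.5 kb in WT HSPCs (log2 change 1.39, adjusted p = 0.0224), and Crispld2 6.84 kb and 1.93 kb (log2 change 1.6, adjusted p = 0.02). Among the 12 highest-ranked domains Lrrfip1 and Zfp36 passed. S100a8/S100a9 did not, at 12.1 kb in neutrophils and 5.59 kb in WT HSPCs (log2 change 1.05, adjusted p = 0.189). The falls included Nfil3, with 2.0 kb in neutrophils and 3.24 kb in WT HSPCs, and Hnrnpf, with 4.73 and 7.25 kb.

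In both WT HSPC libraries H3K4me1 was present in 77.4% of all domains and 99.7% of the 300 ranked next below the set. It was present in all 300 domains of the set. Its median length in the set was 9.15 kb in neutrophils, 7.89 kb in Npm1c, 8.28 kb in Flt3-ITD, 7.76 kb in DM and 8.45 kb in WT HSPCs. Between neutrophils and WT HSPCs 12 domains rose and 7 fell, against 5.94% and 3.41% of the 11161 tested, so the called share of 6.33% did not exceed the 9.35% of all. With the wider spread 9 rose and 0 fell, and without any 1 of the 4 libraries the count lay between 4 and 6. Siglece (rank 238) had 12.7 kb in neutrophils and 6.72 kb in WT HSPCs (log2 change 0.87, adjusted p = 0.0171). Syk, the kinase of integrin and Fc receptor signalling (rank 16), had 23.3 kb and 16.4 kb (log2 change 0.49, adjusted p = 0.0415). The domain of Cebpb had 6.97 kb in neutrophils and 8.92 kb in WT HSPCs and was among the falls.

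**Figure D5:**
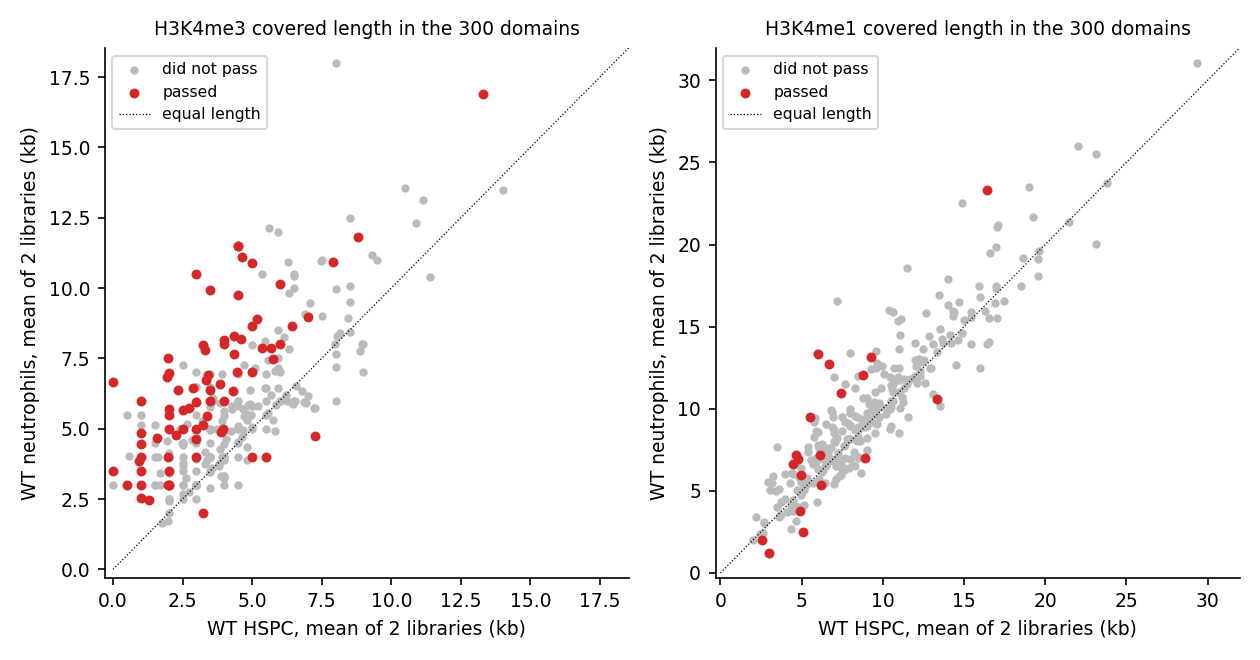
Mean covered length of H3K4me3 (left) and H3K4me1 (right) in kb in each of the 300 domains, WT neutrophils (y axis) against WT HSPCs (x axis), with red points for adjusted p below 0.05. Most H3K4me3 points lie above the dotted line of equal length, and the H3K4me1 points lie close to it.

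In the mutant HSPCs few domains changed in these marks. For H3K4me3, 2 rose and 1 fell in Npm1c, against 0.612% and 0.754% of all tested domains (1.37% in all). In Flt3-ITD 2 rose and 1 fell, against 1.48% and 0.586% (2.07% in all), and in DM 8 rose and 7 fell, against 3.65% and 1.57% (5.22% in all). Without a test, both libraries lay above both WT HSPC libraries in 29 domains in Npm1c, 59 in Flt3-ITD and 64 in DM, against 7.36%, 9.81% and 18.9% of all tested domains. They lay below in 49, 36 and 55, against 14.1%, 14% and 10.7% of all. With the wider spread the counts were 0 in Npm1c, 1 fall in Flt3-ITD, and 9 rises and 2 falls in DM. Centring gave 1 rise and 2 falls in Flt3-ITD, while of all tested domains 167 rose and 70 fell. Leaving out 1 library raised the count to between 8 and 17 in Npm1c and between 7 and 9 in Flt3-ITD. Rab20, the gene of a phagosomal GTPase (rank 205), had 2.99 kb in Npm1c, 3.0 kb in Flt3-ITD, 3.0 kb in DM and 1.97 kb in WT HSPCs, a step of about 1 peak that was called in all 3 and in none with the wider spread. Il4ra had 1.99 kb in Npm1c, 2.0 kb in DM and 1.0 kb in WT HSPCs, likewise a step of 1 peak. Mroh2a/Hjurp, which lost H3K27ac in DM, had 2.0 kb of H3K4me3 in DM and 4.0 kb in WT HSPCs (log2 change -0.85, adjusted p = 0.00867), a call that was also lost with the wider spread.

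For H3K4me1, 38 of the 300 domains in Npm1c and 22 in Flt3-ITD had an unadjusted limma p under 0.05. Of all 11161 tested domains, 814 and 832 did. After adjustment 0 of the 300 were called in Npm1c and 0 in Flt3-ITD, against 0.771% and 0.887% of all tested domains. Of all, 0.251% rose and 0.52% fell in Npm1c, and 0.296% rose and 0.591% fell in Flt3-ITD. In Npm1c 6 fell with the wider spread, and leaving out the second Npm1c library gave 2 rises and 18 falls. In DM 1 rose and 5 fell, against 1% and 1.64% (2.64% in all), and without any 1 library 2 or 3 fell. Both DM libraries lay below both WT HSPC libraries in 119 of the 300 domains and above in 23, against 19.8% and 18.9% of all. For Npm1c the counts were 81 below and 33 above, against 13.2% and 14% of all. For Flt3-ITD they were 55 and 47, against 16.1% and 13.1%. The H3K4me1 lists covered 104.8 and 109.4 Mb in DM and 122.9 and 131.2 Mb in WT HSPCs. The part of list length in these counts was not tested. The DM falls called by limma included Dip2b/Atf1 (rank 206), with 4.52 kb in DM and 9.80 kb in WT HSPCs (log2 change -1.04, SE 0.10, adjusted p = 0.00562), which stayed called in all 9 alternatives in which it was tested. They also included Rsl24d1 (rank 295), with 2.12 kb in DM and 5.74 kb in WT HSPCs, and Sae1/Zc3h4 (rank 109), with 4.0 kb in DM and 7.98 kb in WT HSPCs.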

How the data were processed

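The deposited files are peak lists with chromosome, start and end, 1 for each of 30 ChIP libraries, in mm10 and with no score, count or signal. Bowtie2 2.1.0, Picard, HOMER and MACS2 are named without their roles, per the submitters' processing notes. The 5 input libraries were not used here. Listed H3K4me1 and H3K4me3 peaks are all 1000 bp wide. From these lists the base pairs covered in each domain were computed with Python 3.11.15, NumPy 2.4.6 and pandas 2.3.3. Differences were tested in R 4.3.3 with limma 3.58.1, by moderated linear models with a mean-variance trend (eBayes), on log2(covered bp + 500), over domains covered in at least 2 of the fitted libraries. The 8 HSPC libraries entered the H3K27ac fit and all 10 libraries the fits of the other marks. P-values were adjusted by the Benjamini-Hochberg method over all tested domains at 0.05. The scripts were tested on simulated data. Fold changes understate short domains because of the added 500 bp. The domains and gene lists were chosen with earlier results of these data known. Named domains were the 12 of highest rank, those at the edge of the set, up to 4 per gene list in rank order, those with no HSPC H3K27ac, the 5 highest and the 5 lowest WT HSPC shares in the first 100 ranks, and the 3 largest rises and falls per comparison among calls in the same direction in all library pairs. Others were named after their values were seen. Genes, promoters and microRNAs came from RefSeq GRCm38.p6. Alternatives were centring, another added length, no filter, a replicate block, a 5 kb gap, lists of equal length, another ranking and leaving out each library, with a wider spread added after seeing the data. Figures were drawn with matplotlib 3.10.9. Some domains named by the rule are not reported here.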

Additional observations from a re-analysis of the deposited data

Results flagged for a closer look

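At 3 of the 294 domains tested, the DM change in H3K27ac covered length differed from the sum of the Npm1c and Flt3-ITD changes. The test was the interaction contrast in limma with Benjamini-Hochberg adjustment. The called share was 1.02%, against 2.21% of all 9692 tested domains. The interaction was -1.44 on the log2 scale at Cbx5/Hnrnpa1/Nfe2 (adjusted p = 0.0482), -1.26 at Cd81/Tssc4 (adjusted p = 0.0173) and -1.24 at Tmprss3/Ubash3a (adjusted p = 0.00287). Cd81/Tssc4 covered 5.69 and 5.24 kb in Npm1c, 3.05 and 3.31 kb in Flt3-ITD, 2.57 and 2.30 kb in DM and 2.78 and 2.49 kb in WT HSPCs, so Npm1c stood above the other 3 groups. The value at Tmprss3/Ubash3a stayed past the threshold in all 13 alternatives in which it was tested. That at Cbx5/Hnrnpa1/Nfe2 passed in 4 and missed it in 9, with the same sign in all.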

How the results depend on the processing

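The lists hold positions and no read counts, so depth is unknown. With the 5 kb gap or lists of equal length, domains were stitched and ranked anew, so those counts are over a newly chosen 300. Given as the number of the 300 domains called, H3K27ac moved as follows. In Npm1c it was 5 with each library centred on its median, 5 with a stitching gap of 5 kb and 0 when any 1 library was left out. In Flt3-ITD it was 6 after centring and 0 to 1 with 1 library left out. In DM it was 53 after centring, 7 with no filter on low coverage and 1 to 52 with 1 library left out. The interaction gave 5 with the 5 kb gap and 1 to 82 with 1 library left out. With the replicate number as a block (replicate block), the counts were 0 in Npm1c, 0 in Flt3-ITD, 2 in DM and 1 for the interaction. Deviations of same-numbered libraries from their group means correlated between -0.341 and 0.304. With 2 libraries per group, these values cannot tell whether the numbers pair the samples.

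For H3K4me3, a spread of at least 1 peak, chosen after seeing the data, gave 0 in Npm1c, 1 in Flt3-ITD and 30 in neutrophils. The 5 kb gap gave 7 in Npm1c and 5 in Flt3-ITD, and centring gave 124 in neutrophils. Leaving out 1 library gave 8 to 17 in Npm1c, 7 to 9 in Flt3-ITD, 11 to 17 in DM and 36 to 71 in neutrophils. Centring turned the Flt3-ITD split to 1 rise and 2 falls, and over all tested domains gave 360 rises and 263 falls in DM, against 411 and 177.

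For H3K4me1, the added spread gave 6 in Npm1c and 9 in neutrophils, the 5 kb gap gave 2 in Npm1c, 2 in Flt3-ITD and 3 in DM, and no filter gave 1 in Npm1c. Centring gave 3 in DM and 11 in neutrophils, and the replicate block 2 in DM and 8 in neutrophils. Of all tested domains, 82 rose and 160 fell in DM after centring, and 593 rose and 333 fell in neutrophils. Leaving out 1 library gave 0 to 20 in Npm1c, 0 to 1 in Flt3-ITD, 2 to 3 in DM and 4 to 6 in neutrophils. With lists of equal length, 6 domains had no HSPC H3K27ac and the median WT HSPC share was 41.3%; leaving out 1 library gave 3 to 5 domains and 36.0% to 39.0%. Of 385 rechecks of 40 named calls, 258 kept the call, 127 lost it and 0 reversed. The cause of these shifts was not tested.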
